A study of Mus musculus with 2 samples.

Results

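The 9 genes described here encode 4 ligands (Vegfa, Vegfb, Vegfc and Pgf), 3 tyrosine kinase receptors (Kdr, Flt1 and Flt4) and 2 co-receptors (Nrp1 and Nrp2) of the vascular endothelial growth factor (Vegf) system. They were chosen by symbol, and all 9 were found among the 27998 genes counted. Their unique molecular identifiers (UMIs, 1 per captured RNA molecule) were read by cell type in 2 single-cell libraries of mouse lung at postnatal day 10. One library came from a control and the other from a mutant whose label joins Nkx2-1 with Aqp5. Nkx2-1 is a homeobox factor that sets lung epithelial identity, and Aqp5 is a water channel gene of alveolar type 1 (AT1) cells, the thin cells of gas exchange, often used to direct Cre to them. Not given in the sources used here are the alleles, the strain, the number of animals and what the control carries. Both libraries held epithelial, immune, endothelial and mesenchymal cells sorted by FACS, so shares of lineages reflect the sort.

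Vegfa is the ligand that drives endothelial growth and survival through Kdr, the main signalling receptor. Flt1 binds Vegfa tightly but signals weakly, and so acts largely as a decoy, and it also binds Vegfb and Pgf. Vegfc binds Flt4, the receptor best known from lymphatic vessels, and neuropilins hold ligand for the kinase receptors and also serve class 3 semaphorins. In the lung, epithelial cells, AT1 cells among them, are a known source of Vegfa, and capillary endothelial cells marked by Car4 are known to need it.

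There were 4461 barcodes with 29862980 UMIs in the control (median 5943 per barcode) and 4551 barcodes with 47271104 UMIs in the mutant (median 8305). The libraries shared 27 barcodes. After filters on quality and doublets, 3910 control and 4108 mutant cells were used. The AT1 compartment was taken as all epithelial cells in no cluster named for another epithelial type, so that loss of AT1 markers could not remove a cell from it. There were 542 such control cells and 2208 such mutant cells, of which 0 and 2035 lay in clusters with too few AT1 markers to be called AT1-like. These 2035 cells are in the compartment only for lack of another name. Whether they came from AT1 cells was not tested. In the compartment, Nkx2-1 was at 487 UMIs per 1000000 (CPM) in the control and 13.9 in the mutant, and the AT1 markers Ager and Aqp5 were at 22417 and 3133 CPM against 1327 and 244. Each genotype has 1 library, so nothing here was checked over replicates. The 8 endothelial lineage markers summed to 12735 and 11340 CPM in endothelial cells and to 280 and 31.2 CPM in the AT1 compartment. Brackets give exact 95% intervals that cover counting error only, and not the spread between animals, and no p-value is given. Levels are CPM of the summed UMIs of a class, and were not compared between genes.

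In the mm10 assembly, Vegfa (ENSMUSG00000023951) lies on chromosome 17 from 46016993 to 46032369, Kdr (ENSMUSG00000062960) on chromosome 5 from 75932827 to 75978458 and Flt1 (ENSMUSG00000029648) on chromosome 5 from 147561604 to 147726011, all on the minus strand. The other members are Vegfb on chromosome 19, Vegfc and Nrp1 on chromosome 8, Pgf on chromosome 12, Flt4 on chromosome 11 and Nrp2 on chromosome 1. The 250 bases before the start site are shown for the ligand with the widest difference and for the 2 receptors found almost only in endothelial cells. The sequences are RefSeq's, in build GRCm38.p6, written 5′ to 3′ on the gene's strand. Capitals mark GGAAG or its reverse complement CTTCC, the core letters bound by ETS factors, a family of endothelial regulators.
Vegfa, chr17:46032378-46032627, minus strand: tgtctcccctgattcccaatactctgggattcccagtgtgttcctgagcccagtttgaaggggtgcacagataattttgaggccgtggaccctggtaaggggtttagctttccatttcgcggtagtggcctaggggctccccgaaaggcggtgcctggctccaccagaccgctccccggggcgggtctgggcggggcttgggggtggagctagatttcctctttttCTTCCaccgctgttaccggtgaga
Kdr, chr5:75978456-75978705, minus strand: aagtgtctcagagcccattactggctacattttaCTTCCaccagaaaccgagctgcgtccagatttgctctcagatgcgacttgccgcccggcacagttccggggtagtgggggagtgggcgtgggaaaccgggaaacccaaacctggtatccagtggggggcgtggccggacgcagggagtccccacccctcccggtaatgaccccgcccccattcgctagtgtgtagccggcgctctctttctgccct
Flt1, chr5:147726012-147726261, minus strand: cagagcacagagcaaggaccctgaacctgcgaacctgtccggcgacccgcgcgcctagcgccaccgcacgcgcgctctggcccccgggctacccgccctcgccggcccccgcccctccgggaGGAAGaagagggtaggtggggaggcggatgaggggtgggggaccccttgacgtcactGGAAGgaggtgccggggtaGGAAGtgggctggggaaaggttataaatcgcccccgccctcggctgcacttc
Kdr held 1 match, Flt1 3 and Vegfa 1. The 250 bases before each start site were searched on both strands. There, 64.1% of all 32841 promoters in the table held these letters, so a match sets none of them apart. All 9 members matched the table, with 11 start sites. The hypoxia letters ACGTG or GCGTG stood in 38.6% of all promoters and, among the members, in those of Kdr, Flt1, Nrp1, Nrp2 and Vegfb, and at 1 of 2 starts each of Vegfa and Pgf. The letters CACTTG, which NK homeobox factors bind and which also form an E-box (CANNTG), stood in 11.6% of all promoters and in 0 of the 11 member windows.

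Vegfa was highest in AT1 cells. The control compartment held 2950 Vegfa UMIs, at 808 CPM (779 to 837), and the mutant held 3007 UMIs from more cells, at 98.4 CPM (94.9 to 102). The level was 8.21-fold lower in the mutant (7.80 to 8.64), and the intervals lay far apart. Cells of the mutant compartment were deeper, with a median of 12278 UMIs against 6423, and per cell, without scaling to depth, Vegfa went from 5.44 to 1.36 UMIs, a 3.997-fold lower value. Once every cell was thinned to 1500 UMIs, 67.2% of control cells (63.0 to 71.1) and 13.9% of mutant cells (12.5 to 15.4) had a Vegfa UMI. Unthinned, the shares were 94.1% and 48.9%. In immune cells 1.56% of control cells had one and 0 of 162 mutant cells did. Free RNA was estimated to add 2.27 CPM of Vegfa to the control compartment and 4.68 CPM to the mutant one. For Kdr the same estimate gave 0.743 and 1.92 CPM, above the 0.274 and 0.589 CPM seen, so it was too high for that gene.

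The difference lay between clusters, and its direction changed within the 1 AT1-like cluster that both libraries filled. In that cluster, Vegfa was at 409 CPM (342 to 484) in 42 control cells and at 591 CPM (553 to 631) in 170 mutant cells, which is 1.45-fold higher in the mutant (1.205 to 1.75). Nkx2-1 in the same cells was at 510 CPM in the control and 188 in the mutant, and Ager at 18146 and 10916. Sftpc, a surfactant gene of alveolar type 2 (AT2) cells, was at 61971 CPM in these control cells and 23742 in these mutant cells. The part of AT2 RNA in the 1.45-fold ratio was not tested. The other 500 control cells lay in a cluster with almost no mutant cells. It had 847 CPM of Vegfa, 22835 of Ager and 4662 of Sftpc. Over all AT1-like cells, 542 control and 173 mutant, Vegfa was at 808 and 599 CPM, a 1.35-fold lower level (1.25 to 1.45).

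Most mutant cells of the compartment lay in 6 clusters without control cells. One of them, with 363 cells, had Vegfa at 271 CPM (255 to 287), with 4663 CPM of Ager and 15.4 of Nkx2-1. The 5 others had Vegfa between 27.6 and 59.5 CPM, Ager between 17.7 and 478 and Nkx2-1 between 2.44 and 3.30. Over all 2035 such cells Vegfa stood at 71.8 CPM. Sprr1a and Clu were among the 10 leading genes of all 6 clusters, with Spp1 or Msln beside them. These genes are known from squamous or injured epithelium (Sprr1a, Clu), bone and wound matrix (Spp1) and mesothelium (Msln). Tff1, Tff2 or Cym, genes known from the stomach, were also among the 10 leading genes of the 5 clusters with less Vegfa. Tff2 was between 190 and 1652 CPM in these 5, and at 11.6 CPM in the cluster of 363 cells. Of the 5, those with 319 and 288 cells were cycling clusters, with the cycling marker Mki67 at 163 and 430 CPM. The mutant-only cluster with the highest Ager also held the most Vegfa. Whether the mutant library's own clusters differ from the control by genotype or by library cannot be told apart.

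**Figure D1:**
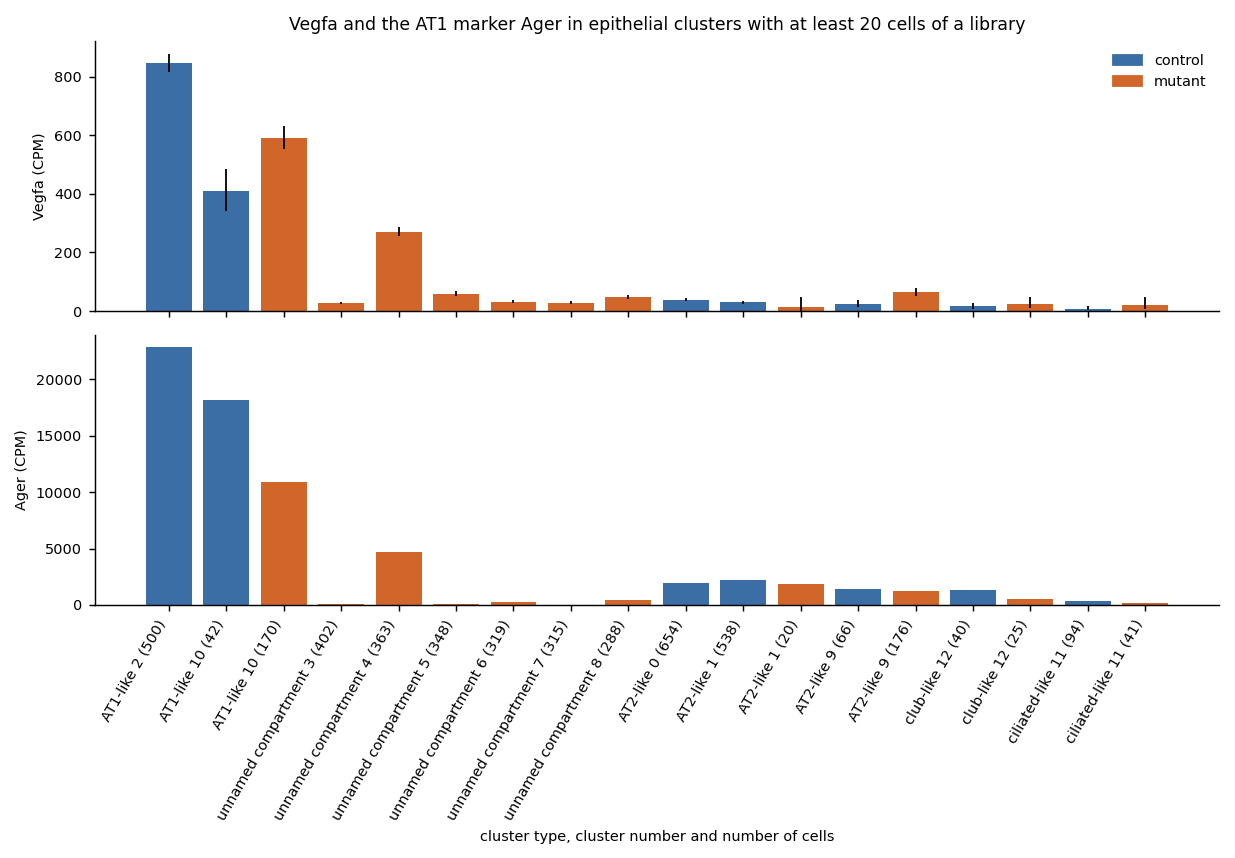
Vegfa (upper bars, CPM, with exact 95% counting intervals) and the AT1 marker Ager (lower bars, CPM) in each epithelial cluster with at least 20 cells of a library, control in blue and mutant in orange, with the number of cells in brackets. AT1-like clusters lie between 409 and 847 CPM of Vegfa, and the mutant-only unnamed clusters between 27.6 and 271 CPM.

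AT2-like cells, the surfactant makers, went the other way. Vegfa was at 33.9 CPM (30.3 to 37.8) in 1258 control cells and at 60.6 CPM (49.4 to 73.6) in 214 mutant cells, 1.79-fold higher (1.42 to 2.24). These levels came from 328 and 102 UMIs at close median depths, 7330.5 and 7219.5 UMIs per cell. The libraries filled different AT2-like clusters: 654 and 538 of the control cells lay in 2 clusters that held few mutant cells, and 176 of the mutant cells in another. In that cluster, shared with 66 control cells, Vegfa was at 24.6 CPM in the control and 65.4 in the mutant (2.66-fold, 1.57 to 4.76). The other cluster with 20 mutant cells had only 2 mutant Vegfa UMIs. AT1-like cells stood 23.8-fold above AT2-like cells in the control (21.2 to 26.8) and 9.88-fold in the mutant (8.05 to 12.2). The AT1 compartment gave 82.6% of the control library's Vegfa UMIs and 87.6% of the mutant's, where it also held more of the cells.

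Outside the alveolar epithelium, Vegfa was low. Control alveolar fibroblast-like cells had 93.8 CPM and arterial-like endothelial cells 91.6 CPM, and these neighbours in the order did not differ beyond their intervals. In the mutant, the unnamed compartment, remaining endothelial, alveolar fibroblast-like, AT2-like and cycling endothelial cells lay between 59.5 and 71.8 CPM, and adjacent values overlapped. In the lineage as a whole, endothelial cells had 36.8 CPM in the control and 57.0 in the mutant (1.55-fold higher, 1.201 to 2.01). Over shared clusters alone that ratio was 1.03. Alveolar fibroblast-like cells had 62.5 CPM in the mutant, 1.50-fold below their control level (1.07 to 2.10).

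**Figure D2:**
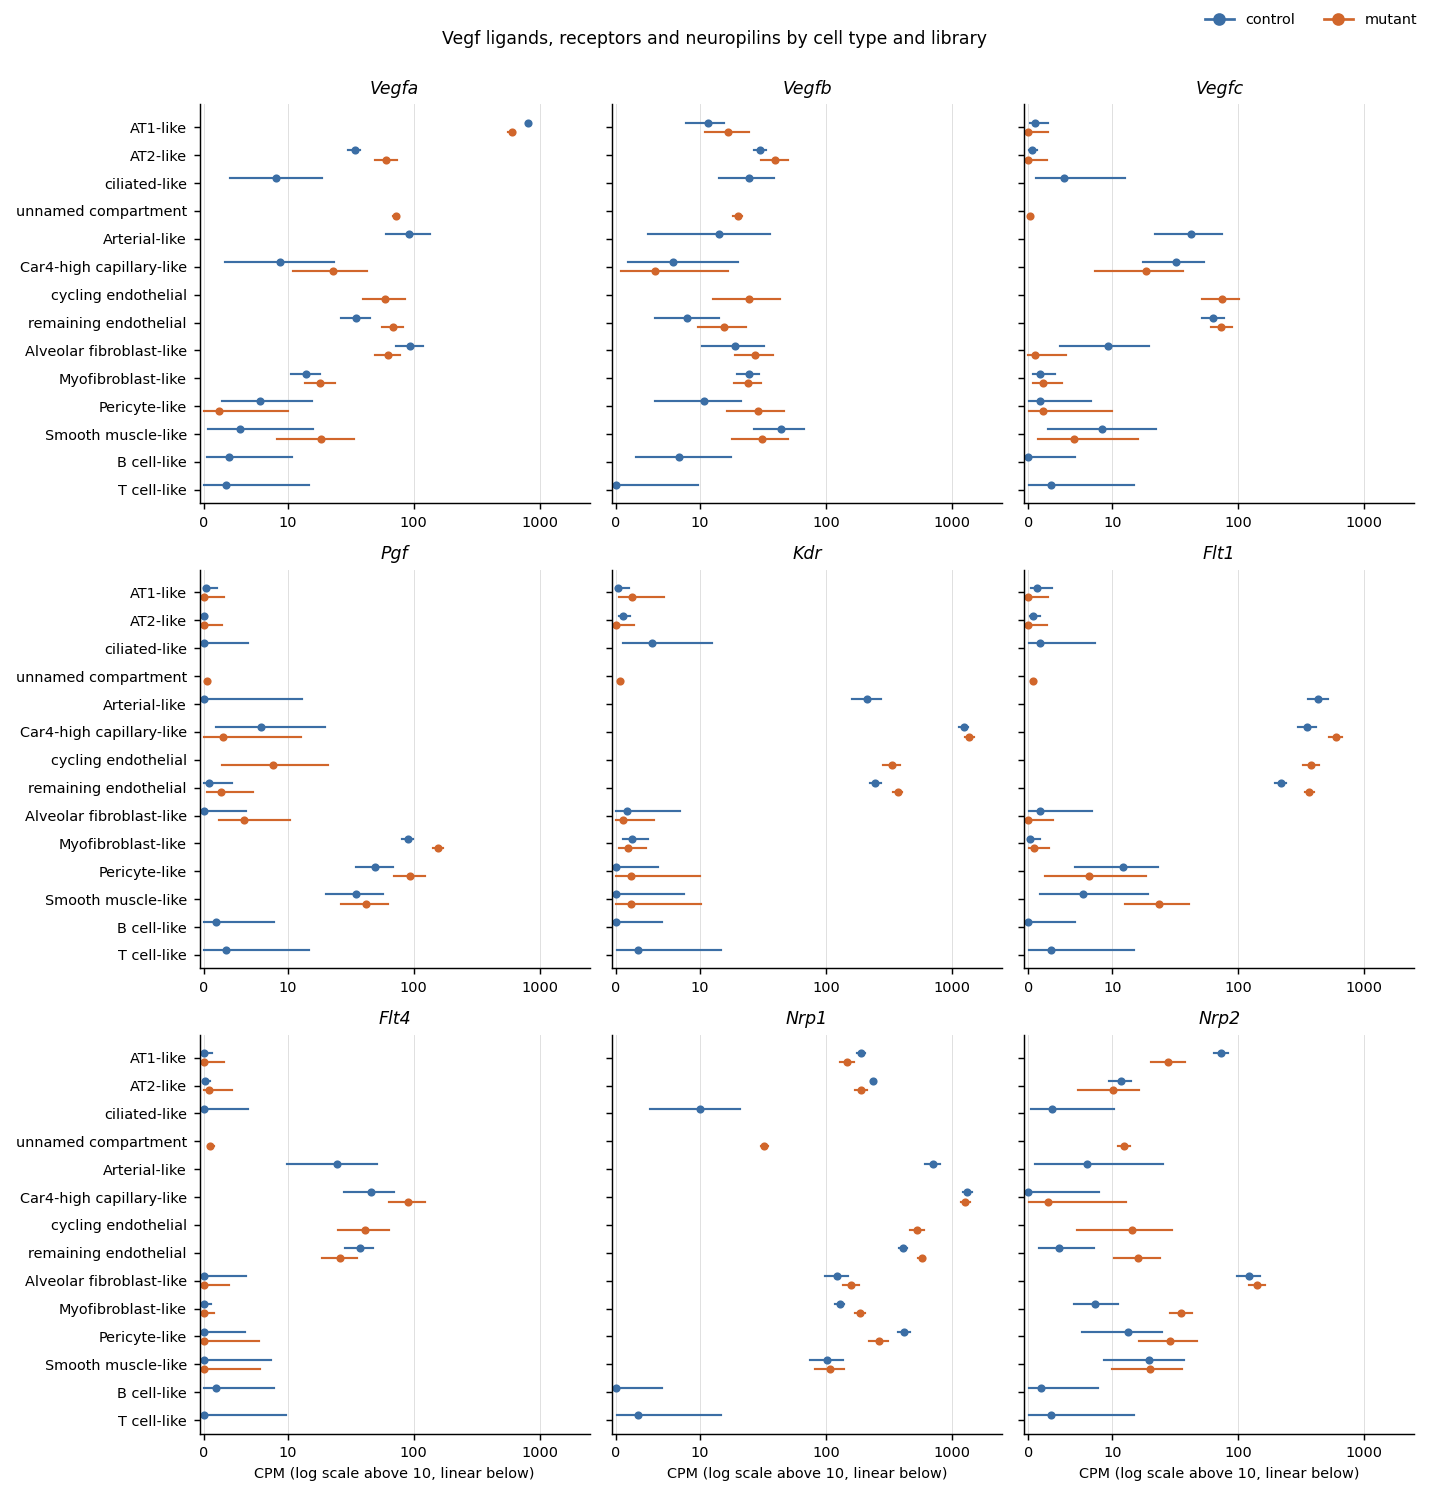
Levels of the 9 members, 1 panel a gene, by cell type in each library with at least 50 cells of it, in CPM on an axis that is linear below 10 and logarithmic above. Points are control (blue) and mutant (orange) levels and lines their exact 95% counting intervals, which show Vegfa highest in AT1-like cells at 808 and 599 CPM and Kdr, Flt1 and Flt4 highest in endothelial types.

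Vegfb, a ligand of Flt1 linked to fatty acid handling and cell survival, was spread over many types. In the AT1 compartment it was at 11.497 CPM in the control (8.29 to 15.5) and 19.8 in the mutant (18.3 to 21.5), 1.72-fold higher (1.26 to 2.42). In AT2-like cells it was at 29.98 and 39.2 CPM, with an interval of the ratio from 0.985 to 1.71 that spans no difference. The highest control level, 43.6 CPM in smooth muscle-like cells, and the next, in AT2-like cells, did not differ beyond their intervals. AT2-like cells gave 52.3% of the control's Vegfb UMIs and 7.28% of the mutant's, while the AT1 compartment, with more cells in the mutant, gave 7.58% and 66.9%.

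Vegfc, the main ligand of lymphatic growth, came mostly from endothelial cells, which gave 84.8% of the control's UMIs and 91.2% of the mutant's. Endothelial cells were at 80.0 CPM in the control (69.9 to 91.2) and 94.7 in the mutant (83.5 to 107), and the interval of the ratio, 0.986 to 1.42, spans no difference. Venous-like cells held the most, 522 CPM in 26 control cells and 469.6 CPM in 38 mutant cells, which was 8.27-fold and 6.38-fold above the remaining endothelial cells. Car4-high capillary-like cells had 31.8 and 18.4 CPM. Cell types with fewer than 50 cells in both libraries, venous-like cells among them, lie outside the rule for named types and were chosen after their values were seen.

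Pgf, placental growth factor, which binds Flt1, was a mesenchymal transcript. Mesenchymal cells gave 97.99% of the control's and 95.1% of the mutant's UMIs, at 63.7 CPM (57.8 to 69.9) and 96.2 CPM (88.5 to 105), 1.51-fold higher in the mutant (1.33 to 1.72). Myofibroblast-like cells, the contractile cells of the growing septa, led at 89.8 and 155 CPM (1.73-fold). Most of them lay in clusters of 1 library, with 142 and 31.0 CPM in the control's (278 and 239 cells) and 207 and 92.3 CPM in the mutant's (227 and 156 cells). In the shared cluster Pgf was at 134 and 155 CPM, a ratio of 1.15 whose interval spans 1 (0.837 to 1.59). Next came pericyte-like cells, which wrap capillaries, at 49.7 and 93.3 CPM (1.88-fold). Smooth muscle-like cells had 34.9 and 41.9 CPM, and these intervals overlapped. Figf, the older symbol of Vegfd, a further ligand of the family and no member of the set, was led by alveolar fibroblast-like cells at 709.7 CPM in the control and 637 in the mutant. Among AT1 compartment cells Figf had 3 control and 120 mutant UMIs, 0.821 and 3.93 CPM, where free RNA was estimated at 0.455 and 1.35 CPM.

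The kinase receptors were endothelial. Endothelial cells gave 95.4% of the control's and 96.4% of the mutant's Kdr UMIs, 95.3% and 96.8% for Flt1, and 97.2% and 81.4% for Flt4. Of the 9 members, all of which reached 20 UMIs in endothelial cells, 9 had a higher level in the mutant, 5 with an interval above 1 and 4 with one that spans it. Pgf is among these 4, with 6 and 14 UMIs (0.862 to 7.58), and its log2 ratio went from 1.26 to -1.26 after thinning. At least 2-fold higher were 2 of the 9, Nrp2 and Pgf, and 0 were 2-fold lower, where 6.97% of all 10243 genes with 20 UMIs in endothelial cells were 2-fold higher and 2.19% lower. The median log2 ratio was 0.63 over the members and 0.08 over all genes. All 12 AT2 markers together made 2915 CPM of control endothelial cells and 293 CPM of mutant ones. The libraries thus differed in RNA of other cells. With the estimated free RNA subtracted, the log2 ratio was 0.68 for Flt1 (0.68 before) and 0.32 for Kdr (0.32 before).

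**Figure D3:**
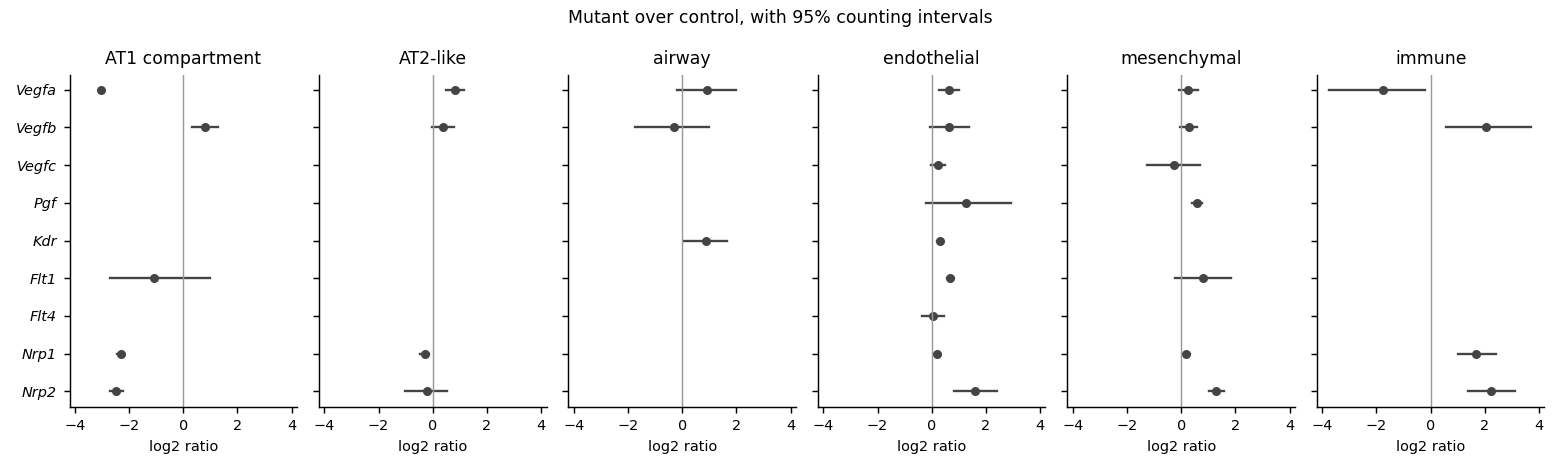
Log2 ratio of mutant over control CPM (points) for each member in each of 6 classes, with the exact 95% counting interval (lines). Members with fewer than 20 UMIs in a class, and Flt4 in the AT1 compartment, are left out. Vegfa, Nrp1 and Nrp2 lie below 0 in the AT1 compartment, and all 9 members lie above 0 in endothelial cells.

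Flt1 was the kinase receptor with the widest difference in endothelial cells. It was at 267 CPM (248 to 287) in 584 control endothelial cells and at 429 CPM (405 to 454) in 466 mutant ones, 1.61-fold higher (1.46 to 1.76). After thinning, 30.7% and 48.3% of the cells had a UMI, against 0.623% of control immune cells and 0 of 162 mutant ones. The 6 shared clusters with at least 20 cells of each library all had a ratio above 1, from 1.27 to 2.31, and in 3 of them the interval spans 1. Car4-high capillary-like cells went from 352 to 593 CPM (1.69-fold, 1.38 to 2.07), remaining endothelial cells from 217 to 367 CPM, and cycling cells from 163 to 377 CPM (2.31-fold, 1.65 to 3.31). Arterial-like cells were at 430.0 and 547 CPM, in 64 and 20 cells, with overlapping intervals.

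Kdr was highest in Car4-high capillary-like cells in both libraries. These 86 control and 65 mutant cells were at 1238 CPM (1136 to 1346) and 1368 CPM (1260.5 to 1483), a ratio of 1.11 whose interval spans 1 (0.983 to 1.24). They stood 5.03-fold above the remaining endothelial cells in the control (4.42 to 5.74) and 3.69-fold in the mutant (3.28 to 4.15). The remaining endothelial cells were at 246 and 370.5 CPM, 1.51-fold higher in the mutant (1.32 to 1.72), though most of them lay in clusters held by 1 library. Arterial-like cells were lower in the mutant, 211 against 94.0 CPM, from 60 and 11 UMIs. Over all endothelial cells Kdr was at 398 and 496 CPM, 1.25-fold higher (1.15 to 1.35), and over shared clusters alone the ratio was 1.13. In 1 small shared cluster of the remaining cells, with 27 of each library, it was 3.74 (2.24 to 6.55). Airway cells also held Kdr, with 35 control and 25 mutant UMIs (22.9 and 42.1 CPM), of which 32 and 22 lay in club-like cells, the secretory cells of the airway. Free RNA was estimated to give 1.01 and 1.18 CPM of Kdr there.

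Flt4 was the receptor with the fewest UMIs, 105 in each library's endothelial cells. Its levels, 37.5 and 38.4 CPM, did not differ beyond the interval of the ratio (0.774 to 1.35). Within the Car4-high capillary-like cells it was at 45.4 CPM from 20 UMIs and 89.7 CPM from 39 UMIs (1.97-fold, 1.12 to 3.57), and within the remaining endothelial cells at 37.3 and 26.1 CPM. Lymphatic endothelial cells, the classic site of Flt4, were nearly absent: 4 control and 1 mutant barcodes had at least 2 of 4 lymphatic markers, and all of them had been removed as likely doublets. The 4 control barcodes held 18 Flt4 UMIs. AT1 compartment cells had 0 control and 23 mutant Flt4 UMIs. No fold is given, because the control's floor of 3 counts (0.821 CPM) lies above the mutant level (0.753 CPM).

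**Figure D4:**
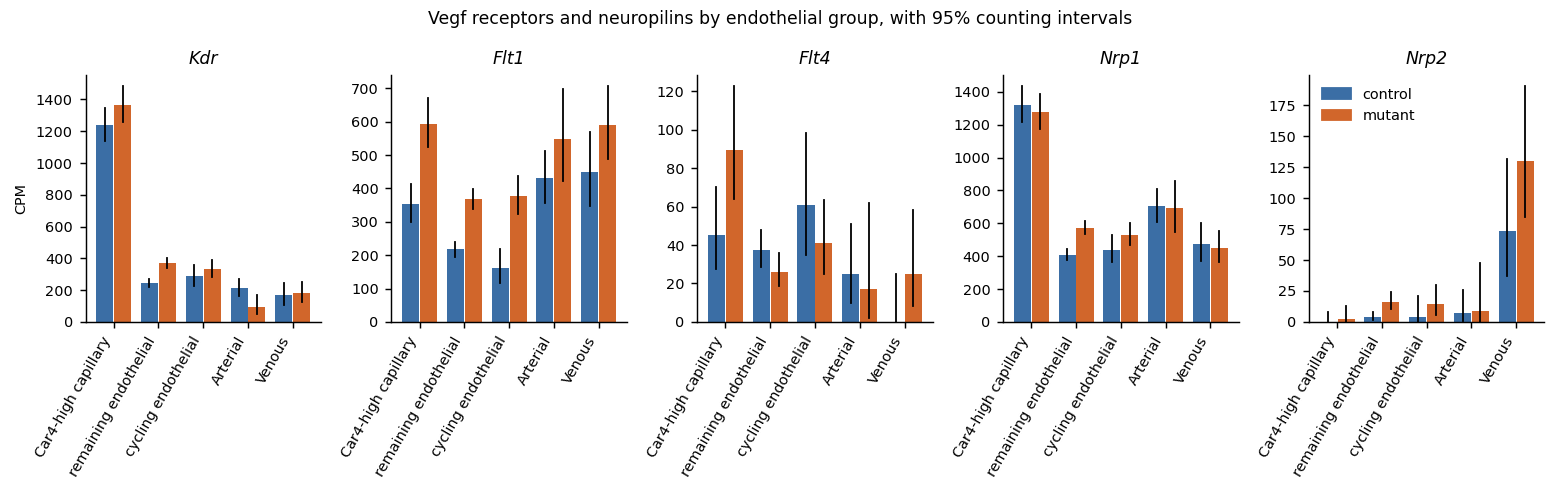
Kdr, Flt1, Flt4, Nrp1 and Nrp2 in 5 endothelial groups, in CPM on a linear axis from 0, as bars for control (blue) and mutant (orange) with exact 95% counting intervals. Car4-high capillary-like cells have the highest bars for Kdr (1238 and 1368 CPM) and Nrp1 (1322 and 1279 CPM), and the mutant bar for Flt1 is the higher one in each group, with overlapping intervals in arterial and venous cells.

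Single cells held Kdr and Flt1 together about as often as their separate shares give. After thinning, 12.8% of control endothelial cells (10.2 to 15.8) and 21.7% of mutant ones (18.0 to 25.7) had a UMI of both Kdr and Flt1, against products of the separate shares of 10.9% and 19.2%. Neither receptor was seen in 46.7% of control and 33.7% of mutant cells, which at this depth does not show that they lack them. Car4-high capillary-like cells had both in 36.0% of the control and 55.4% of the mutant. Their share of endothelial cells was 14.7% (11.95 to 17.9) in the control and 13.9% (10.9 to 17.4) in the mutant, and these intervals overlap. Kdr and Nrp1 were seen together in 21.4% of control endothelial cells (18.1 to 25.0) and 28.8% of mutant ones (24.7 to 33.1). The products of their shares, 17.7% and 24.5%, lay below these intervals. Within each endothelial group of at least 50 cells the product lay inside the interval.

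Nrp1 is the co-receptor of Kdr for Vegfa. Summed over each class, it was lower in the mutant in the AT1 compartment and AT2-like cells, and higher in endothelial and mesenchymal cells. Its level in the control AT1 compartment was 189 CPM (176 to 204). The mutant compartment was at 38.2 CPM (36.0 to 40.4), 4.96-fold lower (4.51 to 5.46). In the AT1-like cluster that both libraries filled, Nrp1 did not differ beyond its interval, at 147.5 and 145.4 CPM (ratio 0.986, 0.719 to 1.38). AT1-like cells alone were at 189 and 147 CPM, and the mutant-only unnamed cells at 32.4 CPM. AT2-like cells were at 236 CPM in the control and 191 in the mutant, 1.23-fold lower (1.10 to 1.39), and gave 39.2% of the control's Nrp1 UMIs and 7.13% of the mutant's.

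Endothelial Nrp1 was at 589 CPM (561 to 618) for the control and 674 CPM (644 to 706) for the mutant, 1.14-fold higher (1.07 to 1.22). Summed over shared clusters the ratio was 0.995. Within them it ran from 0.946 to 1.65, with the interval above 1 in 1 small cluster of the remaining cells (1.16 to 2.38) and spanning 1 in the 5 others. Car4-high capillary-like cells led in both libraries at 1322 and 1279 CPM, which did not differ beyond their intervals. Mesenchymal cells were at 169 and 193 CPM, and there too the ratio of 1.14 (1.05 to 1.24) turned to 0.909 over shared clusters. Pericyte-like cells were lower in the mutant, 415 against 262 CPM (1.58-fold, 1.296 to 1.94), and myofibroblast-like cells higher, 128 against 186 CPM.

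Nrp2, the co-receptor that also binds Vegfc, was high in alveolar fibroblast-like cells at 121 and 142 CPM, which overlapped. In the AT1 compartment it was at 73.1 CPM in the control and 13.2 in the mutant, 5.54-fold lower (4.73 to 6.49), and AT1-like cells alone were at 73.1 and 27.8 CPM. The shared AT1-like cluster had 13 control and 42 mutant UMIs of Nrp2, with a ratio of 0.688 whose interval spans 1 (0.363 to 1.398). Over the mesenchymal lineage it was at 22.1 and 54.3 CPM, 2.46-fold higher (2.02 to 3.002). Alveolar fibroblast-like cells, its main site there, numbered 132 in the control and 212 in the mutant, and myofibroblast-like cells went from 7.95 to 35.4 CPM. Of the latter, 1 shared cluster held most Nrp2 UMIs, 26 from control and 90 from mutant cells (48.4 and 153 CPM, 3.16-fold, 2.02 to 5.09), and the clusters of 1 library lay between 1.18 and 8.49 CPM. In endothelial cells it rested on 20 and 59 UMIs, 7.14 and 21.6 CPM.

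Immune cells were few, 321 control and 162 mutant, and their makeup differed, with 137 and 29 B cell-like cells. Vegfa there was at 13.7 CPM from 24 UMIs and 4.05 CPM from 4 UMIs, where free RNA was estimated at 8.47 and 5.31 CPM. Nrp1 was at 16.0 and 51.6 CPM, and Nrp2 at 9.72 and 45.5 CPM. The 8 mesenchymal lineage markers summed to 201 and 457 CPM in the same cells, with Dcn and Pdgfra at 0 in the mutant. Tagln, Acta2 and Eln, genes of contractile and matrix-forming cells, were among the 10 leading genes of the dendritic-like cluster (4 control and 19 mutant cells). Alveolar macrophage-like cells, 36 and 41, had 61.2 and 182 CPM of Nrp2. The part of cell makeup and of mesenchymal RNA in these results was not tested. Of the 4 members with 20 UMIs in immune cells, 3 were at least 2-fold higher and 1, Vegfa, lower, where 8.18% of genes were 2-fold higher and 6.56% lower. Vegfa's direction turned under a limit of 5% mitochondrial counts, with a log2 ratio of 1.37 against -1.76.

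In the AT1 compartment, 4 of the 6 members with 20 UMIs were at least 2-fold lower (Vegfa, Nrp1, Nrp2 and Flt1) and 0 were at least 2-fold higher. The interval lay below 1 for 3 of them. That of Flt1, with 4 control and 16 mutant UMIs, spans 1 (0.154 to 1.97), and its mutant level of 0.524 CPM lay below the estimated free RNA of 1.65 CPM. Of all 12729 genes with 20 UMIs there, 12.2% were 2-fold lower and 22% higher, 34.2% in all. In AT2-like cells 0 of 4 members passed 2-fold, where 7.46% of genes were higher and 4.85% lower, 12.3% in all. In mesenchymal cells 1 of 7 was 2-fold higher, Nrp2, where 6.67% of genes were higher and 2.49% lower, 9.16% in all. In airway cells 0 of 3 passed, where 8.7% of genes were higher and 6.4% lower, 15.1% in all.

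Genes of receptor signalling lay on both sides in endothelial cells. Of 36 listed, 32 reached 20 UMIs, and 22 had a higher and 10 a lower level in the mutant, with a median log2 ratio of 0.25 beside 0.08 over all genes. Ptprb, the endothelial phosphatase that restrains Vegf and Tie signalling, was at 460.3 CPM in the control and 619 in the mutant. Pik3cb, a catalytic subunit of phosphoinositide 3-kinase, had the largest ratio (8.21 and 29.98 CPM), and Pxn, a focal adhesion adaptor, was lower (85.0 and 67.3 CPM).

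Genes known to be induced by Vegf were more often lower than higher in the mutant. Of 22 listed, 16 reached 20 UMIs, with 5 higher and 11 lower in the mutant and a median log2 ratio of -0.29. No interval is given for this median. As 5 of the 16 lay above 0, the counts alone do not set it apart from 0, and it describes these genes only. Over all 10243 genes, 5882 were higher and 4361 lower, with a median of 0.08. Of the 16, 3 were at least 2-fold lower and 0 at least 2-fold higher, beside 2.19% and 6.97% of all genes. Esm1, a proteoglycan of endothelial tip cells, was at 59.3 CPM in the control and 10.2 in the mutant, 5.79-fold lower (3.86 to 8.98). It was among the 10 leading genes of a cluster with 148 control and 3 mutant cells. The part of that cluster in the ratio was not tested. Angpt2, the Tie2 ligand that destabilises vessels, was at 14.6 and 4.75 CPM (3.08-fold lower). In the other direction, Adamts1, a matrix protease, was at 162 and 264 CPM, and Pdgfb, the ligand that recruits pericytes, at 113 and 167 CPM.

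**Figure D5:**
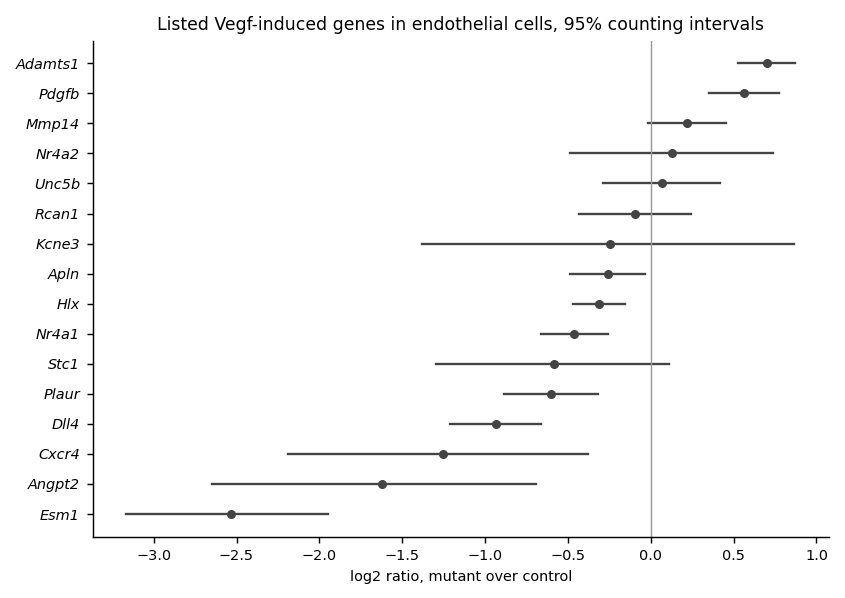
Log2 ratio of mutant over control CPM in endothelial cells for the 16 listed Vegf-induced genes with at least 20 UMIs, with exact 95% counting intervals. Below 0 lie 11 of the 16, Esm1 the lowest, and above it 5.

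Of 14 genes of the Car4-high capillary state, all reached 20 UMIs, with 2 higher and 12 lower and a median of -0.23. Most of this list, Rprml and Cyp4b1 among them, were the fixed markers that named the Car4-high capillary-like cells. It also shares Apln with the Vegf-induced list, so it is independent of neither. Rprml was at 23.9 CPM in the control and 1.83 in the mutant, and Cyp4b1 at 253 and 110.0 CPM, while Kitl, the ligand of Kit, was at 213 and 464 CPM. Among 12 of 16 hypoxia genes, 7 were higher and 5 lower (median 0.25). Ankrd37 (28.2 and 136 CPM) and Bnip3, a mitophagy receptor (6.07 and 19.4 CPM), had the largest ratios, and Epas1, the hypoxia factor of endothelial cells, was at 926 and 918 CPM.

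For the AT1 compartment, all 16 hypoxia genes reached 20 UMIs, 9 higher and 7 lower, with a median of 0.29 beside 0.15 over all genes. Hif1a was at 19.4 and 33.0 CPM. Egln3, a prolyl hydroxylase of the oxygen response, was at 0 UMIs in control cells and at 11.2 CPM in mutant cells. Against a floor of 3 counts over the class, that is at least 13.6-fold higher. Of 12 semaphorins and plexins, the other partners of neuropilins, 10 reached 20 UMIs, 4 higher and 6 lower, with a median of -1.11. Sema3a was at 214 CPM in the control and 20.8 in the mutant (10.3-fold lower), and Sema3e at 403 and 112 CPM (3.6004-fold lower). Sema3c went the other way, from 3.56 to 226 CPM (63.6-fold higher).

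Elsewhere these neuropilin partners differed less. In endothelial cells 8 reached 20 UMIs, 3 higher and 5 lower, with a median of -0.10, and Sema3c led at 535 and 685 CPM (1.28-fold, 1.195 to 1.37). In mesenchymal cells 11 did, 9 higher and 2 lower, with a median of 0.30 beside 0.04 over all genes. Sema3d was at 7.41 and 16.8 CPM there (2.26-fold, 1.598 to 3.24), and Sema3b at 5.52 and 2.57 CPM.

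Vegfc is cut to its active form by proprotein convertases and further enzymes brought by Ccbe1. Of 6 such genes, 3 reached 20 UMIs in endothelial cells, and Furin, Pcsk5 and Pcsk7 all had intervals of the ratio that span 1. Furin was at 39.3 and 42.0 CPM and Pcsk5 at 77.5 and 85.6 CPM. In mesenchymal cells 5 did, 1 higher and 4 lower. Ccbe1 was at 3.05 and 6.17 CPM (2.02-fold, 1.15 to 3.64), from 21 and 36 UMIs, and Pcsk6 at 10.5 and 3.94 CPM.

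Likeness was measured by Pearson's r of log2(CPM + 10) over 22 profiles, one for each cell type and library with at least 50 cells, against 11754 genes. These profiles share libraries, so r is a description. Vegfa was most like Ndst1 (0.876), which modifies heparan sulfate, then Papss2 (0.846) and Flrt3 (0.840). Kdr was most like Gm9917 (0.994) and Clec1a (0.993), Flt1 most like Cdh5 (0.977), the endothelial cadherin, and Pgf most like P2ry14 (0.975), which was one of the fixed myofibroblast markers. Vegfc was most like Dnah2os (0.962), Vegfb most like Siva1 (0.805), Nrp1 most like Stx12 (0.908) and Nrp2 most like Mrc2 (0.895). Among members, Kdr and Flt1 had r = 0.964 and Kdr and Flt4 0.985.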

How the data were processed

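Raw UMI counts per gene and barcode, made and deposited by the authors from 10x Genomics 3' libraries, were used. The submitters' processing notes name Cell Ranger, Seurat and the mm10 build. Versions, annotation release and any filter are not given there. The 4141 control and 4418 mutant barcodes kept had 500 genes or more and less than 10% of UMIs from mitochondrial genes. Doublets were scored per library with Scrublet in scanpy 1.11.5, and the top-scoring expected share (0.8% per 1000 cells) was removed, 132 and 150 cells. Another 99 control and 160 mutant cells were removed as mixed, having at least 4 markers of another lineage or lying in clusters that mixed lineages.

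Both libraries were clustered together (2000 variable genes, 30 components, 20 neighbours, Leiden resolution 1, seed 1), first by lineage and then within it. The members, and listed genes that were no fixed markers, were left out of the variable genes. A cluster took a name, read as X-like, at a mean log2 fold of at least 1 over its markers, with at least 3 markers in at least 10% of its cells. The naming thresholds, the epithelial lineage genes, and the doublet and mixed-cell rules were chosen after seeing the data. Members and lists were chosen with earlier results of these data known. UMIs were summed per class and library, as CPM, with exact Poisson, conditional binomial (ratios) and Clopper-Pearson (shares) 95% intervals; UMIs count molecules, but the intervals cover counting error only. Where 1 library had 0 UMIs, its floor was 3 counts in that class. Named genes were the 9 members and, per list, the 3 with the highest CPM and the 2 with the largest ratio in each direction; 1 such gene is not reported here. The share of cells with a UMI was taken after thinning to 1500 UMIs, which left out 0 cells. Free RNA was estimated per class from genes of other lineages. Interval coverage was checked on Poisson counts simulated under the model that the intervals assume. Such counts hold no differences between cells or animals, so the check does not cover those. Promoters came from a RefSeq table.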

Additional observations from a re-analysis of the deposited data

Results flagged for a closer look

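The mutant over control difference of 3 members pointed in opposite directions in 2 classes, with both counting intervals away from no difference. The log2 ratio of Vegfa was -3.04 in the AT1 compartment and 0.84 in AT2-like cells. That of Nrp1 was -2.31 in the AT1 compartment and 1.69 in immune cells, and that of Nrp2 was -2.47 and 2.23. The difference between classes was not tested, since each class has 1 library per genotype. The immune values rest on 28 control and 51 mutant UMIs of Nrp1 and on 17 and 45 of Nrp2.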

How the results depend on the processing

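No paired analysis was possible because each genotype has 1 library, and no replicate could be left out. Values are log2 ratios of mutant over control. Vegfa in the AT1 compartment was -3.04, and became -2.76 with doublets kept, -2.94 under 5% mitochondrial counts, -2.73 as the mean of per-cell CPM, -3.15 scaled by the median of ratios and -2.68 in non-cycling cells. Taking only AT1-like clusters gave -0.43, and the whole epithelium -1.22. Alternatives chosen after seeing the data gave -2.73 with each cell thinned to 1500 UMIs, -2.00 as UMIs per cell, and 0.53, the other direction, over clusters with at least 20 cells of each library. Over such shared clusters, Kdr in endothelial cells went from 0.32 to 0.17, and Nrp1 from 0.20 to -0.0072 in endothelial and from 0.19 to -0.14 in mesenchymal cells. Over the same clusters the Car4-high share was 30.6% in the control and 26.2% in the mutant. Thinning moved mesenchymal Nrp1 to 0.015. As UMIs per cell, endothelial Kdr was 0.61, Flt1 0.97 and Nrp1 0.49, and mesenchymal Nrp1 0.068. Vegfa in immune cells was 1.37 under 5% mitochondrial counts, against -1.76. Of 33 member ratios, 19 had an interval away from no difference, of which 15 kept their direction under all alternatives and 4 lost it at least once. The cause was not tested. Counting depth limits the members with few UMIs, and a second library of each genotype would be needed to give the spread between animals.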
